A study of Mus musculus with 16 samples.

Results

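The comparison described here asks whether livers lacking ARID1A answered a nuclear receptor agonist differently from wild-type livers. It is an interaction, the agonist response in Arid1a knockout (KO) livers minus the agonist response in wild-type (WT) livers, and it used 8 of the 16 RNA-seq libraries of the series. The libraries form 4 groups of 2 mouse livers each: KO livers given the agonist, KO livers given the vehicle dimethyl sulfoxide (DMSO), WT livers given the agonist and WT livers given DMSO, called KO agonist, KO vehicle, WT agonist and WT vehicle livers below. The KO and WT groups are labelled as collected 30 days after tamoxifen, the drug that switches on the gene deletion, although the titles of both WT agonist samples carry a 9-day tag where their other labels say 30 days. Apart from a TC tag, the labels name the agonist only as one for "NR1L3", which is no symbol in the count table. They state neither the promoter that drives the deletion nor the age or sex of the mice, although the WT sample names begin with the tag ALB, which no label explains, and they call the material hepatocytes although the study's design text speaks of whole liver. The rest of the series is vehicle livers at 9 days with both Arid1a and Arid1b deleted, with Arid1a deleted or WT, 2 of each, which served to estimate the spread between libraries or as a point of comparison, and 2 liver tumours of the genotype labelled Arid1a KO/BcatEXON, which entered only 1 alternative fit.

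ARID1A is a subunit of the BAF chromatin remodelling complex, which moves nucleosomes at enhancers and promoters. Nuclear receptors are transcription factors that small molecules switch on. The constitutive androstane receptor CAR (gene Nr1i3) drives cytochrome P450 genes such as Cyp2b10 in the liver, and the liver X receptor LXR alpha (Nr1h3) drives genes of sterol and fatty acid handling. Hepatocytes also differ by position: those around the central vein make glutamine and carry Wnt target genes, while those around the portal vein make urea and glucose.

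The 8 libraries held between 9375068 and 29771971 counted reads, and replicate 1 of every group was the shallower one. A count of 3 corresponded to between 0.0983 and 0.359 CPM, the read count relative to the library's total after TMM scaling. Both Cyp2b10 and Cyp2c55, CAR target genes, showed that the vehicle livers were not alike. Cyp2b10 had 1871 and 1816 CPM in KO agonist livers, 320.0 and 8.84 CPM in KO vehicle livers, 2106 and 2018 CPM in WT agonist livers and 350.0 and 0.494 CPM in WT vehicle livers, so that replicate 1 of both vehicle groups was high. In the 6 vehicle livers of the 9-day groups it lay between 0.604 and 8.83 CPM. The clock gene Dbp, which cycles over the day, had 5.85 and 205 CPM in KO agonist livers and 6.10 and 324 CPM in KO vehicle livers. For Dbp, WT agonist livers had 106 and 351 CPM and WT vehicle livers 61.0 and 393 CPM, and the replicate 1 livers were the low ones in every group. The main counts below are therefore given also with replicate 2 as the only vehicle liver of each genotype. Low Xist (0.0696 to 0.759 CPM) and high Ddx3y (60.5 to 97.5 CPM) were read in all 8 libraries. Summed over 10 hepatocyte markers, the level was 34220 and 29760 CPM in KO agonist livers, 49780 and 35950 CPM in KO vehicle livers, 45130 and 33060 CPM in WT agonist livers and 48210 and 40720 CPM in WT vehicle livers. Arid1a itself had 81.7 and 67.9 CPM in KO agonist livers and 94.2 and 75.7 CPM in KO vehicle livers. For Arid1a, WT agonist livers had 93.1 and 74.4 CPM and WT vehicle livers 104 and 85.5 CPM, with log2 -0.01, SE 0.26, edgeR adjusted p = 1 for the interaction. KO and WT libraries overlap under each treatment in the Arid1a count, which covers the whole gene and so does not check a deletion of part of it.

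Of the genes tested, 155 passed the test for a response to the agonist in KO livers and 5 in WT livers, but a difference between the 2 responses passed for a single gene, Slc1a2. Of 17831 genes tested with edgeR's quasi-likelihood test, 1 (0.00561%) had an interaction at an adjusted p under 0.05, and it was negative. At an unadjusted p under 0.05 there were 496 positive interactions (2.78%) and 499 negative ones (2.80%), 995 in all. Of all genes 47.2% had a positive interaction. The median interaction over all genes was -0.03 on the log2 scale and its median standard error was 0.53. With the replicate number as a block, 9 genes passed: Slc1a2, Sox4, Acot2, Pparg, Grm8 and Nrep, which are described below, and A530020G20Rik, Mup-ps20 and Slc22a28. Over only the 8 libraries the block gave 4 calls, 0 positive and 4 negative. There Slc1a2 and Adgrf1, both described below, each had an adjusted p of 0.0357. Pparg had 0.0971, Sox4, Grm8 and Nrep 0.126 and Acot2 0.138. Leaving out 1 library gave 0 calls without KO agonist replicate 1 or WT agonist replicate 2, 2 without WT agonist replicate 1, 3 without KO vehicle replicate 1 or WT vehicle replicate 1, and 23 without KO vehicle replicate 2. With replicate 2 as the only vehicle liver of each genotype, 0 genes passed. On the same counts DESeq2 called 132 genes.

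Taken one genotype at a time, 98 genes rose (0.550% of those tested) and 57 fell (0.320%) with the agonist in KO livers. In WT livers 5 rose (0.0280%) and 0 fell, and 653 genes had an unadjusted p under 0.05. With replicate 2 as the only vehicle livers 16 genes were called in KO livers and 12 in WT livers. The number called in KO livers was 35 without KO agonist replicate 1, 68 without KO agonist replicate 2, 29 without KO vehicle replicate 1 and 290 without KO vehicle replicate 2, against 155 with all libraries. In WT livers it was 18 without either of the KO vehicle livers, 3 without WT agonist replicate 1 and 0 without WT agonist replicate 2 or WT vehicle replicate 2. The 2 lists of calls shared 3 genes, Fam171a1, Nebl and Pnliprp1, which are 1.94% of the KO list and 60% of the WT list. Of the 155 genes called in KO livers, 113 had the same sign in WT livers, and the share of same signs over all genes was not counted. Of the 155, 115 had an interaction at an unadjusted p under 0.05 (5.58% of all genes). The interaction holds the same KO response, so that count of 115 is not independent of the calls. Set against each other under the agonist, KO livers were higher than WT livers in 543 genes (3.05%) and lower in 340 (1.91%). Under vehicle they were higher in 51 genes (0.286%) and lower in 41 (0.230%). The count under the agonist was 162 and 471 without KO agonist replicate 1 or 2 in turn, and 252 and 74 without WT agonist replicate 1 or 2 in turn, against 883 with all libraries. Under vehicle, 92 genes became 177 without KO vehicle replicate 1, 27 without KO vehicle replicate 2, 32 without WT vehicle replicate 1 and 1 without WT vehicle replicate 2.

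**Figure D1:**
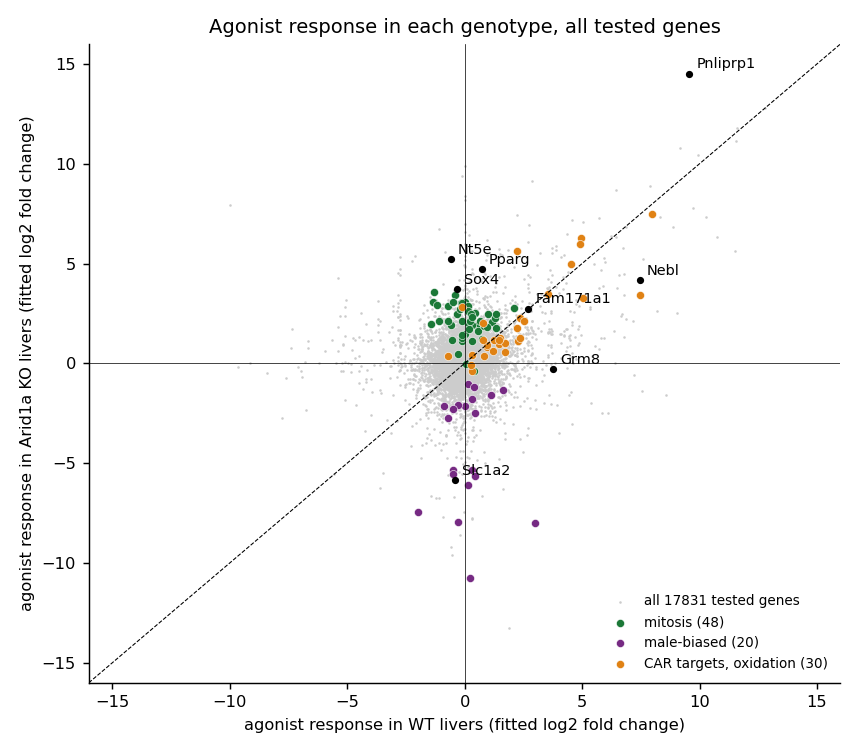
Agonist response in KO livers (vertical axis) against the agonist response in WT livers (horizontal axis), both as fitted log2 fold changes, for all 17831 genes tested (grey) with 48 mitosis genes, 20 male-biased genes and 30 CAR target genes of oxidation in colour. The dashed line marks equal responses. Slc1a2 lies at -5.85 in KO livers and -0.40 in WT livers, Fam171a1 lies on the line, the mitosis genes lie mostly above it and the male-biased genes below it.

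Slc1a2, the gene with the interaction, encodes a high-affinity glutamate transporter that in the liver marks the hepatocytes next to the central vein. It had 0.696 and 0.524 CPM in KO agonist livers, 36.7 and 32.3 CPM in KO vehicle livers, 145 and 153 CPM in WT agonist livers and 151 and 242 CPM in WT vehicle livers. The KO agonist livers were the lowest by a wide gap, the KO vehicle livers came next, and the WT agonist livers lay close to the lower of the WT vehicle livers. As means the levels were 0.610 ± 0.122 CPM in KO agonist livers, 34.5 ± 3.15 CPM in KO vehicle livers, 149 ± 5.43 CPM in WT agonist livers and 197 ± 63.9 CPM in WT vehicle livers (SD, n = 2 each). Slc1a2 fell with the agonist in KO livers (log2 -5.85, SE 0.44, edgeR adjusted p = 0.000839). In WT livers its response was log2 -0.40, SE 0.32, edgeR adjusted p = 1. The interaction was -5.45 with a 95% interval of -6.64 to -4.27 and an edgeR adjusted p of 0.0129. Already under vehicle it was lower in KO than in WT livers (log2 -2.51, SE 0.34, edgeR adjusted p = 0.0117), and it was lower still under the agonist (log2 -7.97, SE 0.47, edgeR adjusted p = 6.3e-05). Over the 18 alternatives the interaction lay between -5.84 and -5.05, but the adjusted p was 0.112 without KO agonist replicate 1, 0.163 without KO agonist replicate 2, 0.0601 without WT agonist replicate 2 and 0.0552 with replicate 2 as the only vehicle livers. In the 9-day vehicle livers of the same series Slc1a2 stood at 1.496 and 0.937 CPM with both Arid1a and Arid1b deleted, at 157 and 78.3 CPM with Arid1a deleted, and at 218 and 230.0 CPM in WT. The gene lies on the plus strand at chr2:102658659-102790784 (GRCm38, GENCODE M21), where the annotation places the antisense gene Gm13872 inside it. No source used here gives the strand setting of the counting, so reads of such overlapping pairs cannot be told apart. An overlapping gene is annotated for 9 of the 20 genes named for their interaction, Slc1a2 among them.

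Other pericentral genes followed no single course. Among 17 listed genes, 1 had an interaction past the adjusted threshold (Slc1a2), 1 had a positive and 4 a negative one at an unadjusted p under 0.05 (2.78% and 2.80% of all genes), and the median interaction was -0.53. That median was -1.16 within the replicate 1 livers and 0.69 within the replicate 2 livers. With the agonist in KO livers 1 listed gene rose, Rcan2, and 3 fell, Slc1a2, Oat and Lhpp (0.550% and 0.320% of all genes), or 5 without KO vehicle replicate 2. Oat, the ornithine aminotransferase of central hepatocytes, had 25.5 and 28.7 CPM in KO agonist livers, 270.5 and 322 CPM in KO vehicle livers, 286 and 436 CPM in WT agonist livers and 598 and 903 CPM in WT vehicle livers. The KO agonist livers were the lowest, the KO vehicle and WT agonist livers overlap, and the WT vehicle livers were the highest. Oat fell in KO livers (log2 -3.45, SE 0.36, edgeR adjusted p = 0.00332), its WT response was log2 -1.05, SE 0.33, edgeR adjusted p = 0.732, and its interaction missed the threshold (log2 -2.40, SE 0.46, edgeR adjusted p = 0.219). Lhpp, a phosphatase, had 4.18 and 5.34 CPM in KO agonist livers and 21.01 and 21.9 CPM in KO vehicle livers. For Lhpp, WT agonist livers had 36.9 and 50.4 CPM and WT vehicle livers 49.4 and 80.9 CPM, again with the KO agonist livers lowest. Lhpp fell in KO livers (log2 -2.16, SE 0.33, edgeR adjusted p = 0.0157). Rcan2, a regulator of calcineurin, went the other way: it had 33.4 and 54.0 CPM in KO agonist livers and 6.67 and 5.38 CPM in KO vehicle livers. For Rcan2, WT agonist livers had 2.87 and 2.80 CPM and WT vehicle livers 4.46 and 2.20 CPM, and it rose in KO livers (log2 2.87, SE 0.54, edgeR adjusted p = 0.0369). Glul, the glutamine synthetase of the same hepatocytes, had 373 and 447 CPM in KO agonist livers and 1096 and 454 CPM in KO vehicle livers. For Glul, WT agonist livers had 753 and 987 CPM and WT vehicle livers 861 and 1058 CPM, with both KO agonist livers under the other 6 and log2 -0.78, SE 0.48, edgeR adjusted p = 1 for the interaction.

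Several genes named for a positive interaction rose with the agonist in KO livers. Sox4, an HMG-box transcription factor on the minus strand at chr13:28948919-28953713, had 39.5 and 43.5 CPM in KO agonist livers, 2.26 and 3.90 CPM in KO vehicle livers, 1.43 and 1.18 CPM in WT agonist livers and 0.948 and 2.15 CPM in WT vehicle livers. Both KO agonist livers stood above every other library. Sox4 rose in KO livers (log2 3.71, SE 0.39, edgeR adjusted p = 0.00332), with a WT response of log2 -0.34, SE 0.42, edgeR adjusted p = 1. Its interaction was log2 4.05, SE 0.56, edgeR adjusted p = 0.0747, and 0.0363 with the replicate block. Nt5e, the ecto-nucleotidase CD73 that makes adenosine, had 120.1 and 117 CPM in KO agonist livers and 1.81 and 4.15 CPM in KO vehicle livers. For Nt5e, WT agonist livers had 15.4 and 6.32 CPM and WT vehicle livers 22.7 and 9.52 CPM. It rose in KO livers (log2 5.22, SE 0.71, edgeR adjusted p = 0.0103) and had an interaction of log2 5.81, SE 0.92, edgeR adjusted p = 0.103, with WT livers of both treatments lying between the 2 KO groups. Acot2, a mitochondrial acyl-CoA thioesterase, had 10.6 and 11.7 CPM in KO agonist livers and 1.70 and 2.24 CPM in KO vehicle livers. For Acot2, WT agonist livers had 1.195 and 2.80 CPM and WT vehicle livers 2.94 and 5.03 CPM. Here too the KO agonist livers were the highest. Acot2 rose in KO livers (log2 2.46, SE 0.34, edgeR adjusted p = 0.0112), and its interaction was log2 3.37, SE 0.49, edgeR adjusted p = 0.0776, and 0.0363 with the replicate block. Itga6, an integrin subunit that binds laminin, had 36.6 and 18.4 CPM in KO agonist livers and between 2.41 and 5.59 CPM in the other libraries. Hid1, a Golgi-associated protein, had 13.2 and 8.71 CPM in KO agonist livers and 2.03 and 1.95 CPM in KO vehicle livers, and Arl6ip5, a membrane protein of the endoplasmic reticulum, had 139 and 121 CPM in KO agonist livers and 38.2 and 49.0 CPM in KO vehicle livers. All 3 rose in KO livers, with adjusted p-values of 0.0173, 0.00961 and 0.00571 in that order, and their interactions of 3.30, 2.80 and 1.39 on the log2 scale missed the threshold.

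A second set had low levels in KO vehicle livers, while KO agonist livers reached or passed the WT range. Pparg, a nuclear receptor of fat storage, had 34.3 and 34.9 CPM in KO agonist livers, 0.791 and 1.66 CPM in KO vehicle livers, 16.02 and 22.4 CPM in WT agonist livers and 7.97 and 15.1 CPM in WT vehicle livers. The KO vehicle livers were the lowest and the KO agonist livers the highest of the 4 groups. Pparg was lower in KO than in WT livers under vehicle (log2 -3.13, SE 0.46, edgeR adjusted p = 0.0177) and rose with the agonist in KO livers (log2 4.70, SE 0.48, edgeR adjusted p = 0.00332). Its interaction was log2 3.97, SE 0.61, edgeR adjusted p = 0.09, and 0.0363 with the replicate block. Aldh3a2, the fatty aldehyde dehydrogenase, had 393 and 393 CPM in KO agonist livers and 74.5 and 35.1 CPM in KO vehicle livers. For Aldh3a2, WT agonist livers had 342 and 489.9 CPM and WT vehicle livers 327 and 574 CPM, so the KO vehicle livers stood apart from the other 6. Under vehicle it was lower in KO livers (log2 -3.05, SE 0.37, edgeR adjusted p = 0.00727), it rose with the agonist there (log2 2.85, SE 0.37, edgeR adjusted p = 0.00882), and its interaction was log2 2.96, SE 0.50, edgeR adjusted p = 0.124. Tmprss2, a transmembrane serine protease, had 21.5 and 22.7 CPM in KO agonist livers and 0.791 and 2.31 CPM in KO vehicle livers. For Tmprss2, WT agonist livers had 11.3 and 4.93 CPM and WT vehicle livers 10.8 and 10.6 CPM. It followed the same order, with a rise in KO livers (log2 3.69, SE 0.50, edgeR adjusted p = 0.0101) and a lower level in KO than in WT livers under vehicle (log2 -2.65, SE 0.49, edgeR adjusted p = 0.047). Me1, the cytosolic malic enzyme that yields NADPH, had 232 and 312 CPM in KO agonist livers and 104 and 82.7 CPM in KO vehicle livers. For Me1, WT agonist livers had 190.5 and 145 CPM and WT vehicle livers 190.3 and 272 CPM. Me1 rose in KO livers (log2 1.54, SE 0.25, edgeR adjusted p = 0.0199), and its interaction was log2 2.01, SE 0.36, edgeR adjusted p = 0.159.

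**Figure D2:**
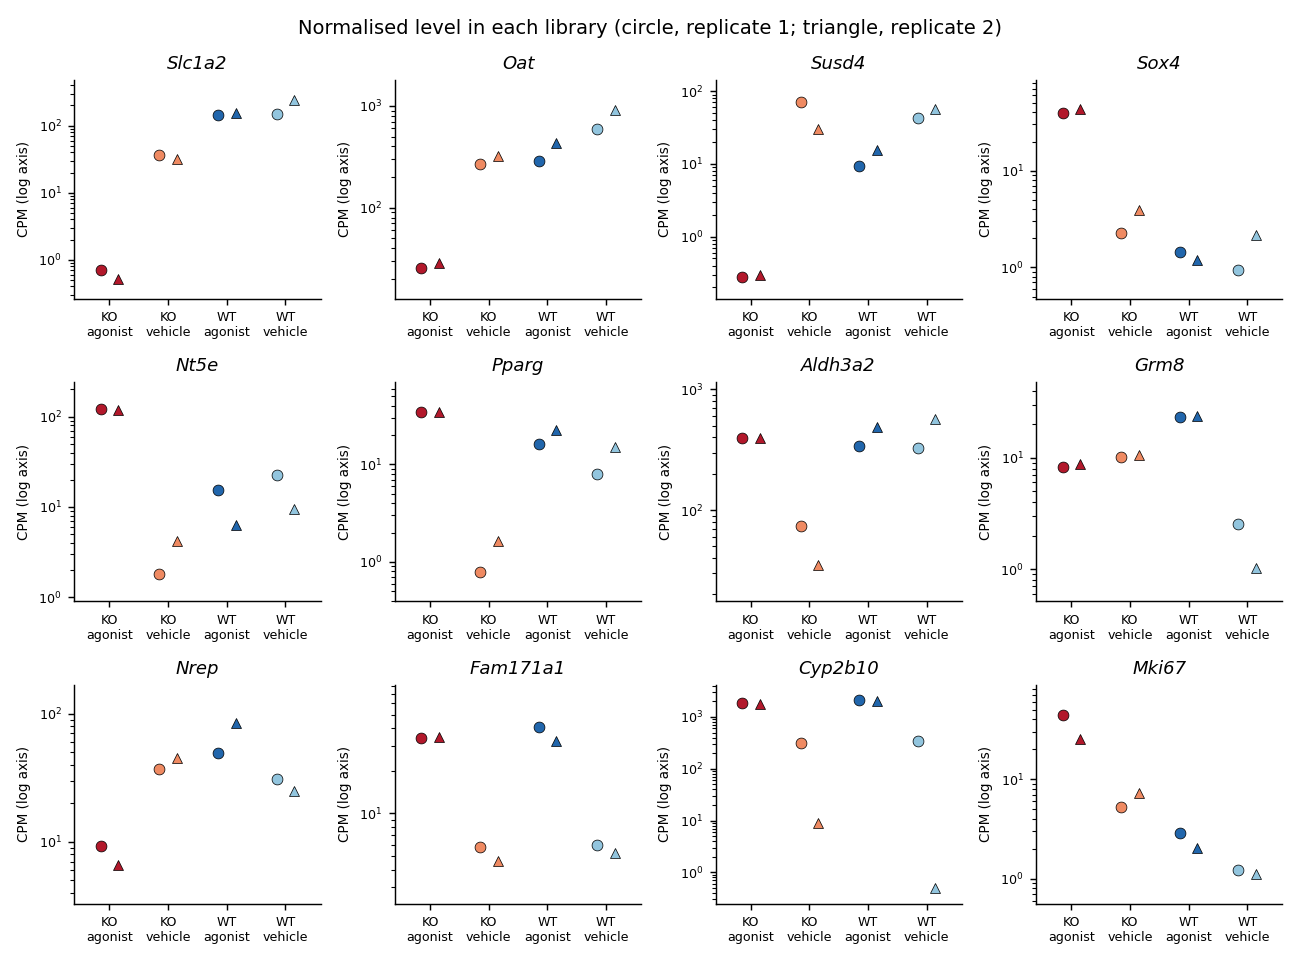
Level of 12 genes in each of the 8 libraries in CPM on a log axis, with the KO agonist, KO vehicle, WT agonist and WT vehicle livers in that order (circles replicate 1, triangles replicate 2). Slc1a2 is under 1 CPM in both KO agonist livers and at 32.3 CPM or above in the other 6, and Cyp2b10 shows the high replicate 1 in both vehicle groups.

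Of the other genes named for a negative interaction, Susd4, Lama3, Lrrc3, C8b, Mcm10, Alas2 and, described after them, Nrep fell in KO livers, and none of these passed the test in WT livers. Susd4, a membrane regulator of complement, had 0.279 and 0.295 CPM in KO agonist livers, 72.0 and 30.6 CPM in KO vehicle livers, 9.44 and 15.6 CPM in WT agonist livers and 42.4 and 56.9 CPM in WT vehicle livers. The agonist livers of both genotypes lay under their vehicle livers, by far more in KO. Susd4 fell in KO livers (log2 -7.44, SE 0.68, edgeR adjusted p = 0.00172), with log2 -1.97, SE 0.48, edgeR adjusted p = 0.339 in WT livers and an interaction of log2 -5.47, SE 0.80, edgeR adjusted p = 0.0798. Lama3, a laminin chain, had 2.37 and 1.54 CPM in KO agonist livers against 27.4 and 19.3 CPM in KO vehicle livers, and 12.7 and 18.5 CPM in WT agonist livers against 17.7 and 17.8 CPM in WT vehicle livers. It fell in KO livers (log2 -3.60, SE 0.42, edgeR adjusted p = 0.00571), and so did Lrrc3, a leucine-rich repeat protein, with 50.4 and 56.1 CPM in KO agonist livers and 193 and 184 CPM in KO vehicle livers. C8b, a chain of the complement pore, had 315 and 316 CPM in KO agonist livers and 1085 and 798 CPM in KO vehicle livers, and fell as well (log2 -1.58, SE 0.24, edgeR adjusted p = 0.0151). Mcm10, a DNA replication factor, had 26.7 and 62.2 CPM in KO agonist livers and 187 and 212 CPM in KO vehicle livers. For Mcm10, WT agonist livers had 227 and 239 CPM and WT vehicle livers 204 and 195 CPM. Its KO agonist livers were the lowest, and it fell in KO livers (log2 -2.16, SE 0.33, edgeR adjusted p = 0.0151) with an interaction of log2 -2.39, SE 0.45, edgeR adjusted p = 0.203. Alas2, the haem synthesis enzyme of red cell precursors, had 66.2 and 66.4 CPM in KO agonist livers, 395 and 293 CPM in KO vehicle livers, 185 and 174 CPM in WT agonist livers and 166 and 189.6 CPM in WT vehicle livers. It fell in KO livers (log2 -2.38, SE 0.33, edgeR adjusted p = 0.0105). The 8 erythroid markers listed, of which Alas2 is one and 6 were tested, summed to 174 and 106 CPM in KO agonist livers, 579 and 371 CPM in KO vehicle livers, 287 and 257 CPM in WT agonist livers and 404 and 239.5 CPM in WT vehicle livers, and their part in that result was not tested.

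The other 3 genes to describe were Grm8, Cyp2d12 and Nrep. Grm8, a metabotropic glutamate receptor, had 8.22 and 8.71 CPM in KO agonist livers, 10.2 and 10.6 CPM in KO vehicle livers, 23.3 and 23.8 CPM in WT agonist livers and 2.56 and 1.03 CPM in WT vehicle livers. The WT agonist livers were the highest, the WT vehicle livers the lowest, and the KO livers lay between them. Grm8 rose in WT livers (log2 3.77, SE 0.44, edgeR adjusted p = 0.015), with log2 -0.29, SE 0.38, edgeR adjusted p = 0.817 in KO livers. Its interaction was log2 -4.06, SE 0.57, edgeR adjusted p = 0.0747, and 0.0363 with the replicate block. Cyp2d12, a cytochrome P450, had 2.51 and 4.03 CPM in KO agonist livers and 10.6 and 13.2 CPM in KO vehicle livers. For Cyp2d12, WT agonist livers had 8.96 and 13.1 CPM and WT vehicle livers 1.99 and 0.898 CPM. It was higher in KO than in WT livers under vehicle (log2 3.10, SE 0.55, edgeR adjusted p = 0.0397), while its responses of -1.85 in KO livers and 2.99 in WT livers did not pass, with adjusted p-values of 0.14 and 0.118. Nrep, named for neuronal regeneration, had 9.33 and 6.55 CPM in KO agonist livers and 36.8 and 44.9 CPM in KO vehicle livers. For Nrep, WT agonist livers had 49.7 and 84.2 CPM and WT vehicle livers 30.7 and 24.9 CPM. The treatments were ordered oppositely in the 2 genotypes: Nrep fell in KO livers (log2 -2.38, SE 0.34, edgeR adjusted p = 0.0112), and its WT response was log2 1.27, SE 0.32, edgeR adjusted p = 0.371. The interaction of Nrep was log2 -3.65, SE 0.46, edgeR adjusted p = 0.0722, and 0.0363 with the replicate block.

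**Figure D3:**
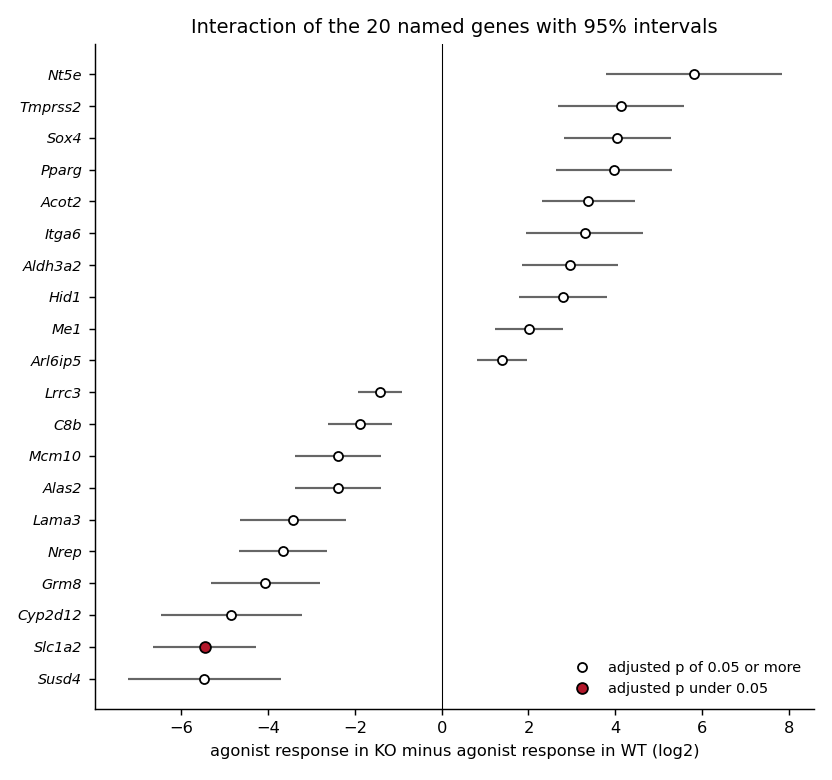
Interaction of the 20 genes named for it, 10 positive and 10 negative, as log2 values with 95% intervals, where positive means a larger agonist response in KO than in WT livers. The single filled point is Slc1a2, whose adjusted p was 0.0129, and the others missed the threshold.

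Genes of mitosis, which build the spindle and part the chromosomes, mostly had a positive interaction, although none passed the interaction test across all genes. All 48 listed genes were tested, 46 had a positive interaction and 19 a positive one at an unadjusted p under 0.05 (2.78% of all genes), with 0 negative. The median was 1.80 for the interaction, 2.12 for the response of KO livers and 0.12 for that of WT livers, and within replicates the median interaction was 2.25 in replicate 1 and 1.17 in replicate 2. The count of 19 was 10 without KO agonist replicate 1, 12 without KO vehicle replicate 1, WT agonist replicate 2 or WT vehicle replicate 2, 9 without WT vehicle replicate 1 and 4 with replicate 2 as the only vehicle livers. In KO livers 46 of the 48 had both agonist libraries above both vehicle libraries (20.3% of all genes did), against 12 in WT livers (14.2% of all genes). Under the agonist 42 of the 48 were higher in KO than in WT livers (3.05% of all genes), but 9 were without KO agonist replicate 1, 5 without WT agonist replicate 1 and 0 without WT agonist replicate 2. Under vehicle 1 was higher (0.286% of all genes), Ncapg, a condensin subunit. Even so, 47 of the 48 had a positive log2 of KO against WT under vehicle (52.9% of all genes did). The median of KO against WT was 1.34 under vehicle and 3.67 under the agonist. Summed over the list, the level was 571 and 407 CPM in KO agonist livers, 129.8 and 172 CPM in KO vehicle livers, 88.2 and 94.5 CPM in WT agonist livers and 84.6 and 87.1 CPM in WT vehicle livers. A higher sum in bulk tissue can be more dividing cells or more RNA in each, which cannot be told apart here.

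Promoters of this class commonly carry the cell cycle homology element TTTGAA and CCAAT boxes, through which the DREAM and NF-Y complexes are known to act. The promoters of 3 members whose CPM values follow are printed to show these letters. Each stretch is 280 bases from RefSeq on GRCm38.p6, from 250 bases before the gene's start to 30 after it and 5′ to 3′ on the gene's own strand. Capitals mark TTTGAA and CCAAT on either strand (TTCAAA and ATTGG on the other one).
Ccnb2, chr9:70421525-70421804, minus strand: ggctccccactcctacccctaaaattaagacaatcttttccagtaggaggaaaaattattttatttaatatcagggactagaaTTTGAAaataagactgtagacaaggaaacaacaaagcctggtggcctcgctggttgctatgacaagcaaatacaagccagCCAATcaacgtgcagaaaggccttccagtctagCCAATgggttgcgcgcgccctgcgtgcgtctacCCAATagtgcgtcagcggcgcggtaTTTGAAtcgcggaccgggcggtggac
Ube2c, chr2:164769679-164769958, plus strand: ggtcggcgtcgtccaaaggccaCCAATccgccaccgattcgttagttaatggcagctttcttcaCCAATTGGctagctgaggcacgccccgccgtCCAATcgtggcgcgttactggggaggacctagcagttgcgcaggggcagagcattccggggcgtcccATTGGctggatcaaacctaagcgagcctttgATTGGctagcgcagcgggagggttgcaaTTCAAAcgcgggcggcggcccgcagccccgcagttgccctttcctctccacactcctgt
Aspm, chr1:139454523-139454802, plus strand: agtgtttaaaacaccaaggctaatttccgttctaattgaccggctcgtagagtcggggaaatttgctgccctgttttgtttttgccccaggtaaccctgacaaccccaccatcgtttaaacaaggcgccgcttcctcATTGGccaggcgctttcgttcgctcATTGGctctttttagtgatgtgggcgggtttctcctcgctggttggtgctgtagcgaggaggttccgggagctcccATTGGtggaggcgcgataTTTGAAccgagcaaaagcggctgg
TTTGAA stands 5 bases after the start of Ccnb2 and 7 after that of Aspm, and TTCAAA stands 29 bases before that of Ube2c. In 300-base windows 41 of the 48 genes had a match in the table, with 44 windows between them. TTTGAA was in 34 of the 44 (77.3%), against 17.9% of all 32851 windows, and CCAAT was in 34 of the 44 (77.3%), against 37.4%. The E2F letters GGCGGGAA were in 0 of the 44, against 2.19% of all. The table's window for Slc1a2 lies at a RefSeq start inside the span given above, downstream of the gene's GENCODE start. It held neither TTTGAA nor CCAAT, but 1 AGGTCA, the core letters of nuclear receptor sites, found in 16.3% of all windows.

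Ccnb2, a B-type cyclin, had 9.26 and 8.42 CPM in KO agonist livers, 2.49 and 1.62 CPM in KO vehicle livers, 0.359 and 0.474 CPM in WT agonist livers and 0.948 and 0.898 CPM in WT vehicle livers. Ube2c, the ubiquitin-conjugating enzyme of the anaphase-promoting complex, had 10.03 and 6.81 CPM in KO agonist livers and 0.452 and 1.62 CPM in KO vehicle livers. For Ube2c, WT agonist livers had 0.478 and 0.355 CPM and WT vehicle livers 0.759 and 0.584 CPM. Aspm, a spindle pole protein, had 9.61 and 6.26 CPM in KO agonist livers and 1.81 and 1.80 CPM in KO vehicle livers. For Aspm, WT agonist livers had 0.359 and 0.592 CPM and WT vehicle livers 1.14 and 0.584 CPM. In all 3 genes the KO agonist livers stood above the other 6. Their interactions were 3.21, 3.58 and 2.82 on the log2 scale in that order, each with an edgeR adjusted p over 0.05. Under the agonist each was higher in KO than in WT livers, with adjusted p-values of 0.0104, 0.0101 and 0.00966. Kif20a, a mitotic kinesin, had 23.9 and 15.5 CPM in KO agonist livers and 2.15 and 2.995 CPM in KO vehicle livers. For Kif20a, WT agonist livers had 0.239 and 1.07 CPM and WT vehicle livers 2.09 and 1.44 CPM, and its interaction was log2 4.08, SE 1.16, edgeR adjusted p = 0.502. Ccna2, cyclin A2, was the 1 member that rose with the agonist in KO livers (log2 2.54, SE 0.50, edgeR adjusted p = 0.046), with 14.3 and 8.29 CPM in KO agonist livers and 1.81 and 2.02 CPM in KO vehicle livers. Mki67, the proliferation marker Ki-67, had 44.5 and 25.4 CPM in KO agonist livers and 5.31 and 7.25 CPM in KO vehicle livers. For Mki67, WT agonist livers had 2.87 and 2.01 CPM and WT vehicle livers 1.23 and 1.12 CPM. KO vehicle livers lay between KO agonist livers and WT livers for it, its interaction was log2 1.44, SE 0.92, edgeR adjusted p = 1, and under the agonist it was higher in KO than in WT livers (log2 3.88, SE 0.66, edgeR adjusted p = 0.0104). Ccna2 and Ncapg were named because each was the 1 member called.

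Markers of other cell types were also followed in these libraries. The 17 macrophage markers, all tested, summed to 1668 and 1004 CPM in KO agonist livers, 689.9 and 886 CPM in KO vehicle livers, 731 and 558 CPM in WT agonist livers and 678 and 230.3 CPM in WT vehicle livers. The 14 stellate cell and fibroblast markers, all tested and all with a positive interaction, summed to 1050 and 567 CPM in KO agonist livers, 383 and 699 CPM in KO vehicle livers, 344 and 335 CPM in WT agonist livers and 393 and 375 CPM in WT vehicle livers. The 9 neutrophil markers, 8 of them tested, summed to 54.0 and 11.3 CPM in KO agonist livers, 4.18 and 9.31 CPM in KO vehicle livers, 16.2 and 8.60 CPM in WT agonist livers and 13.9 and 3.55 CPM in WT vehicle livers. KO agonist replicate 1 was the highest library in all 3 sums, and no marker of these lists was at 0 throughout. Within the replicate 2 livers alone, their median interactions were -1.05, -0.09 and -0.47 in that order, where that of the mitosis genes was 1.17. Within replicate 1 they were 1.31, 1.47 and 2.33, where that of the mitosis genes was 2.25. The cholangiocyte list had median interactions of 0.30 in replicate 1 and 0.25 in replicate 2. For the endothelial list they were 0.60 and -0.85, and for the lymphocyte list 0.66 and -0.78. The part of cell type shares in the mitosis result was not tested.

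**Figure D4:**
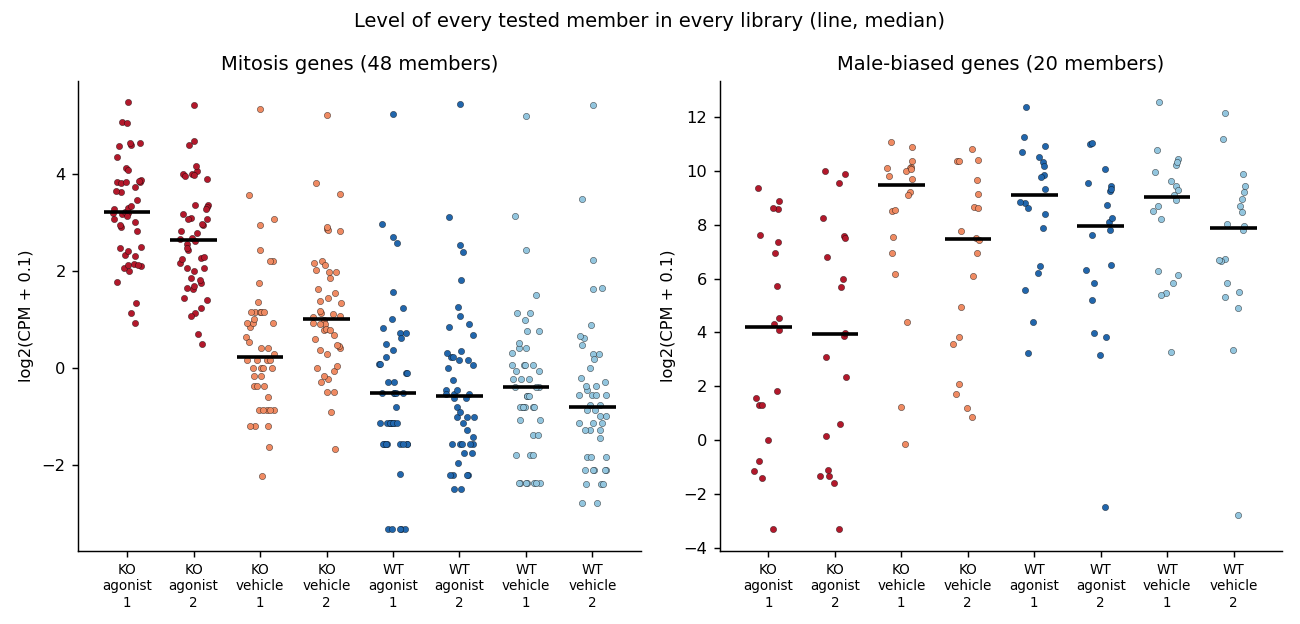
Level of every mitosis gene (48) and every male-biased gene (20) in each of the 8 libraries as the log2 of CPM plus a small constant. Each gene is 1 point per library, coloured by group, and a black bar marks the median of each library. The mitosis median is highest in the KO agonist livers and the male-biased median lowest there.

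Genes of S phase and of the p53 pathway, which halts the cycle after damage, were followed beside them. Of 41 genes of S phase and DNA replication 30 had a positive interaction, 1 a positive and 1 a negative one at an unadjusted p under 0.05 (2.78% and 2.80% of all genes), and the median was 0.32. Under the agonist 13 were higher (3.05% of all genes) and 1 lower (1.91%) in KO than in WT livers, but 2 were higher without KO agonist replicate 2 or WT agonist replicate 1, 8 without KO agonist replicate 1 and 1 without WT agonist replicate 2. Mcm10, described above, was the listed gene that fell. Of 24 p53 target genes 22 had a positive interaction, 5 of them at an unadjusted p under 0.05 (2.78% of all genes) with 0 negative, and the median was 0.70. That 5 was 10 without KO vehicle replicate 2, 3 without WT vehicle replicate 2, 2 without KO agonist replicate 1 or WT vehicle replicate 1 and 1 without WT agonist replicate 2. Zmat3, an RNA-binding p53 target, had 49.0 and 39.3 CPM in KO agonist livers and 16.9 and 23.5 CPM in KO vehicle livers. For Zmat3, WT agonist livers had 13.5 and 10.8 CPM and WT vehicle livers 15.8 and 10.5 CPM, so the KO agonist livers were the highest. Zmat3 was higher in KO than in WT livers under the agonist (log2 1.87, SE 0.26, edgeR adjusted p = 0.00515). That held for 8 of the 24 (3.05% of all genes), and for 0 without WT agonist replicate 2 and 4 without KO agonist replicate 1. Under vehicle 0 of the 24 p53 targets were called higher in KO than in WT livers (0.286% of all genes), and 17 had a positive log2 (52.9% of all genes did). The median of KO against WT was 0.50 under vehicle and 0.94 under the agonist. Cdkn1a, the p21 inhibitor of cyclin-dependent kinases, had 138 and 68.5 CPM in KO agonist livers and 43.6 and 72.1 CPM in KO vehicle livers. For Cdkn1a, WT agonist livers had 8.13 and 2.37 CPM and WT vehicle livers 11.8 and 3.19 CPM, and its interaction was log2 1.39, SE 1.0, edgeR adjusted p = 1. Ccnd1, cyclin D1, had 152 and 148 CPM in KO agonist livers and 29.7 and 115 CPM in KO vehicle livers. For Ccnd1, WT agonist livers had 18.3 and 25.2 CPM and WT vehicle livers 22.9 and 23.4 CPM, with log2 1.13, SE 0.85, edgeR adjusted p = 1 for the interaction.

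Male-biased liver genes, which respond to the pulsed growth hormone of males, were the list with the most negative median interaction among the 16 described. All 20 listed genes were tested, 0 had a positive interaction, and 13 had a negative one at an unadjusted p under 0.05 (2.80% of all genes). The median was -2.93 for the interaction, -2.60 for the response of KO livers and 0.15 for that of WT livers, and within replicates the median interaction was -3.54 in replicate 1 and -2.35 in replicate 2. The count of 13 was 8 without KO vehicle replicate 1 or WT agonist replicate 1. In KO livers 18 of the 20 had both agonist libraries below both vehicle libraries (19.2% of all genes did), against 2 in WT livers (14.2% of all genes). Summed over the list, the level was 2529 and 3679 CPM in KO agonist livers, 14930 and 8857 CPM in KO vehicle livers, 19990 and 9739 CPM in WT agonist livers and 17240 and 11690 CPM in WT vehicle livers. With the agonist in KO livers 5 of the 20 fell (0.320% of all genes), but 1 did without KO agonist replicate 1, KO agonist replicate 2 or KO vehicle replicate 1 and 8 did without KO vehicle replicate 2. Under the agonist 8 were lower in KO than in WT livers (1.91% of all genes), and 3, 1, 3 and 4 were without KO agonist replicate 1, KO agonist replicate 2, WT agonist replicate 1 and WT agonist replicate 2 in turn. Hsd3b5, a steroid dehydrogenase of male liver, had 2.37 and 0.360 CPM in KO agonist livers, 379 and 218 CPM in KO vehicle livers, 399.7 and 57.7 CPM in WT agonist livers and 297 and 263 CPM in WT vehicle livers. The KO agonist livers were the lowest by a wide gap. Hsd3b5 fell in KO livers (log2 -7.95, SE 1.32, edgeR adjusted p = 0.0199), and its interaction was log2 -7.66, SE 1.55, edgeR adjusted p = 0.233. Slco1a1, an organic anion transporter, had 16.9 and 4.91 CPM in KO agonist livers and 846 and 173 CPM in KO vehicle livers. For Slco1a1, WT agonist livers had 639 and 306 CPM and WT vehicle livers 636 and 703 CPM, again with the KO agonist livers lowest. Slco1a1 fell in KO livers (log2 -5.56, SE 0.91, edgeR adjusted p = 0.0196). Mup21, a major urinary protein, had 22.8 and 15.8 CPM in KO agonist livers and 1334 and 564 CPM in KO vehicle livers. For Mup21, WT agonist livers had 340.2 and 90.4 CPM and WT vehicle livers 69.7 and 247 CPM. The KO agonist livers were the lowest and the WT groups overlap. Mup21 fell in KO livers (log2 -5.62, SE 1.11, edgeR adjusted p = 0.0478), with an adjusted p of 0.0573 under the replicate block, and reads of the near-identical Mup copies may be split between them. Of 23 female-biased genes, 12 had a positive interaction, the median was 0.22, and the median response was 2.12 in KO livers and 2.24 in WT livers.

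CAR target genes of drug metabolism had mostly positive responses in both genotypes. Of 30 genes of oxidation, 28 had a positive response in KO livers and 28 in WT livers, the median response was 1.22 in KO livers and 1.61 in WT livers, and the median interaction was -0.28. At an unadjusted p under 0.05 1 had a positive and 2 a negative interaction (2.78% and 2.80% of all genes). Cyp2b10, whose values are given above, had an interaction of -0.07 with a 95% interval of -5.88 to 5.74, too wide to bound a difference. Leaving out 1 library gave values between -8.52, without WT vehicle replicate 1, and 4.10, without KO vehicle replicate 1, and with replicate 2 as the only vehicle livers it was -4.29. Cyp3a11, another P450, had 2780 and 2751 CPM in KO agonist livers and 901 and 1389 CPM in KO vehicle livers. For Cyp3a11, WT agonist livers had 6506 and 5041 CPM and WT vehicle livers 1797 and 2241 CPM. Agonist livers lay above vehicle livers in both genotypes, the interaction was log2 -0.24, SE 0.39, edgeR adjusted p = 1, and the responses were log2 1.27, SE 0.28, edgeR adjusted p = 0.0742 in KO livers and log2 1.51, SE 0.28, edgeR adjusted p = 0.118 in WT livers. The 3 listed genes that rose in KO livers (0.550% of all genes) were Cyp2c65 (log2 6.28, SE 1.06, edgeR adjusted p = 0.036), a P450 like Cyp2c55, Aldh1a7 (log2 1.16, SE 0.19, edgeR adjusted p = 0.0211), an aldehyde dehydrogenase, and Aldh3a2, described above. That count of 3 was 1 without KO agonist replicate 1 or 2. Cyp2c55 itself had 889.9 and 932 CPM in KO agonist livers and 140.3 and 50.2 CPM in KO vehicle livers. For Cyp2c55, WT agonist livers had 938 and 848 CPM and WT vehicle livers 48.1 and 6.06 CPM, with both agonist groups above both vehicle groups. Of 24 genes of conjugation 2 had a positive interaction and the median was -0.48. At an unadjusted p under 0.05, 0 had a positive and 1 a negative interaction (2.78% and 2.80% of all genes). The median response was 0.41 in KO livers and 0.93 in WT livers. The median of KO against WT was 0.72 under vehicle and 0.27 under the agonist. Gstm3, a glutathione transferase, had 2734 and 2337 CPM in KO agonist livers and 410.0 and 1387 CPM in KO vehicle livers. For Gstm3, WT agonist livers had 770.5 and 345 CPM and WT vehicle livers 82.0 and 56.3 CPM, with KO livers above WT livers under both treatments. Its interaction was log2 -1.52, SE 0.76, edgeR adjusted p = 0.951, and 5 of the 24 were higher in KO than in WT livers under the agonist (3.05% of all genes) and 5 under vehicle (0.286%). The first 5 were 1 without KO agonist replicate 1 or WT agonist replicate 2 and 2 without KO agonist replicate 2, WT agonist replicate 1 or either WT vehicle liver, and the others 0 without KO vehicle replicate 2 or either WT vehicle liver. Gstm2 was the 1 that rose in KO livers (log2 1.60, SE 0.26, edgeR adjusted p = 0.0196). Of 10 genes of transport and haem synthesis 0 were called in either genotype. Reads of close paralogues in the Cyp2c, Cyp3a and Gstm families may be split between copies. For LXR target genes, the other reading of the agonist's label, the median of 17 was 0.10 for the interaction, -0.23 for KO livers and -0.20 for WT livers.

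The genes most alike to Cyp2b10 over the 8 libraries, by Pearson correlation of log2 CPM, were Gm14399 (0.966), Hikeshi (0.944), Cd300ld (0.932), Col15a1 (0.931) and Cyp2c55 (0.926). These values share the 8 libraries and their depth and describe likeness only.

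The test for a rise with the agonist passed in both genotypes for 3 genes. Genes that did not pass in both also stood higher with the agonist in both, such as Cyp2c55 and Cyp3a11 above. Sult2a1, named after its values were seen, had 12910 counts in KO agonist livers and 1 in KO vehicle livers, each summed over the 2 libraries of the group. In WT agonist livers Sult2a1 had 1794 counts and in WT vehicle livers 0, summed likewise. These sums do not show how the counts divide between the libraries of a group. Fam171a1, a membrane protein, had 34.0 and 34.8 CPM in KO agonist livers, 5.76 and 4.58 CPM in KO vehicle livers, 40.8 and 32.6 CPM in WT agonist livers and 5.97 and 5.21 CPM in WT vehicle livers. Agonist and vehicle livers did not overlap in either genotype. Fam171a1 rose in KO livers (log2 2.75, SE 0.31, edgeR adjusted p = 0.00571) and in WT livers (log2 2.72, SE 0.31, edgeR adjusted p = 0.015), and its interaction was 0.03 with a 95% interval of -0.88 to 0.94. Nebl, an actin-binding protein, had 13.7 and 14.2 CPM in KO agonist livers and 0.226 and 1.08 CPM in KO vehicle livers. For Nebl, WT agonist livers had 52.7 and 62.5 CPM and WT vehicle livers 0.190 and 0.404 CPM, with the WT agonist livers highest. It rose in KO livers (log2 4.17, SE 0.63, edgeR adjusted p = 0.0151) and in WT livers (log2 7.45, SE 0.74, edgeR adjusted p = 0.0133), with an interaction of log2 -3.28, SE 0.93, edgeR adjusted p = 0.502. Pnliprp1, a relative of pancreatic lipase, had 107 and 134 CPM in KO agonist livers and 0 and 0 CPM in KO vehicle livers. For Pnliprp1, WT agonist livers had 57.0 and 45.8 CPM and WT vehicle livers 0.190 and 0 CPM. It was at least 1531-fold higher in KO agonist than in KO vehicle livers, taking 3 counts over the KO vehicle group as the floor, and 797-fold higher in WT agonist than in WT vehicle livers (exact 95% counting interval 220.3 to 6587). The edgeR adjusted p was 0.00172 in KO livers and 0.0133 in WT livers. The 10 exocrine pancreas markers summed to between 0.819 and 3.76 CPM in the 8 libraries, and 1 of them was tested. Fyb2, an adaptor protein, had 52.7 and 52.0 CPM in KO agonist livers and 28.2 and 23.7 CPM in KO vehicle livers. For Fyb2, WT agonist livers had 52.4 and 46.8 CPM and WT vehicle livers 13.2 and 7.45 CPM. It rose in WT livers (log2 2.28, SE 0.30, edgeR adjusted p = 0.0456, and 0.0589 with the replicate block), while its response in KO livers was log2 1.01, SE 0.29, edgeR adjusted p = 0.155. Without the block its interaction was log2 -1.26, SE 0.41, edgeR adjusted p = 0.669.

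Some genes that rose in KO livers were at or near 0 elsewhere. Krt20, a keratin of the gut lining, had 11.2 and 7.34 CPM in KO agonist livers, 0 and 0.0361 CPM in KO vehicle livers and 0 counts in all 4 WT libraries. It rose in KO livers (edgeR adjusted p = 0.00882) by a ratio of 314 (exact 95% counting interval 55.95 to 12420), and it was at least 96.4-fold higher in KO agonist than in WT agonist livers, on a floor of 3 counts over the WT group. Slc7a11, the cystine importer, had 98.3 and 14.7 CPM in KO agonist livers, 0 and 0.469 CPM in KO vehicle livers, 0.359 and 0.276 CPM in WT agonist livers and 0 and 0.0898 CPM in WT vehicle livers. The KO agonist livers were the highest, though they differed several fold from each other, and Slc7a11 rose in KO livers (log2 7.43, SE 1.08, edgeR adjusted p = 0.0125). Ggt1, which splits glutathione outside the cell, had 16.8 and 10.6 CPM in KO agonist livers and at most 0.325 CPM in any other library, and rose in KO livers (log2 5.72, SE 0.86, edgeR adjusted p = 0.0148). Gipc2, a PDZ-domain protein, had 18.7 and 5.63 CPM in KO agonist livers and at most 0.253 CPM elsewhere (log2 5.60, SE 0.83, edgeR adjusted p = 0.0146). Ptges, a prostaglandin E synthase, had 26.8 and 43.1 CPM in KO agonist livers and 1.13 and 0.433 CPM in KO vehicle livers. For Ptges, WT agonist livers had 12.7 and 10.6 CPM and WT vehicle livers 1.23 and 0.449 CPM, so agonist livers of both genotypes stood above vehicle livers. It rose in KO livers (log2 5.66, SE 0.80, edgeR adjusted p = 0.0112), and its WT response was log2 3.89, SE 0.76, edgeR adjusted p = 0.14. Among the genes that fell in KO livers, Adgrf1, an adhesion receptor, had 1.60 and 0.590 CPM in KO agonist livers and 46.2 and 28.5 CPM in KO vehicle livers. For Adgrf1, WT agonist livers had 32.03 and 15.5 CPM and WT vehicle livers 25.1 and 18.2 CPM, with the KO agonist livers lowest (log2 -5.18, SE 0.82, edgeR adjusted p = 0.0182). The interaction of Adgrf1 had an edgeR adjusted p of 0.22. That value was 0.235 with the replicate block and 0.0357 with the block over only the 8 libraries.

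NRF2 target genes, which make glutathione and clear electrophiles, mostly had positive interactions. Of 21, 18 had a positive interaction, 4 at an unadjusted p under 0.05 (2.78% of all genes) with 0 negative, and the median was 0.65, with 1.15 in replicate 1 and 0.37 in replicate 2. The 4 were 1 without KO agonist replicate 1 or WT agonist replicate 2, 2 without KO vehicle replicate 1, 7 without KO agonist replicate 2 and 9 without KO vehicle replicate 2. Under the agonist 12 were higher in KO than in WT livers (3.05% of all genes), and 4, 8, 5 and 0 were without KO agonist replicate 1, KO agonist replicate 2, WT agonist replicate 1 and WT agonist replicate 2 in turn. Under vehicle 2 of the 21 were higher in KO than in WT livers (0.286% of all genes), and 15 had a positive log2 (52.9% of all genes did). The median of KO against WT was 0.91 under vehicle and 1.38 under the agonist. Cbr3, a carbonyl reductase, had 199 and 92.9 CPM in KO agonist livers and 0.339 and 10.7 CPM in KO vehicle livers. For Cbr3, WT agonist livers had 0.837 and 1.58 CPM and WT vehicle livers 0.284 and 1.03 CPM, and it was higher in KO than in WT livers under the agonist (log2 6.80, SE 1.16, edgeR adjusted p = 0.0106). Genes of fatty acid oxidation had a positive interaction in 26 of 31, 5 at an unadjusted p under 0.05 (2.78% of all genes) with 0 negative, and a median of 0.38, with 0.20 for KO livers and -0.35 for WT livers. The 5 were 12 without KO vehicle replicate 1, 9 without WT vehicle replicate 1 and 3 without WT vehicle replicate 2, and the median was 0.09 in replicate 1 and 0.97 in replicate 2. Bile acid genes had a positive interaction in 5 of 22, 4 a negative one at an unadjusted p under 0.05 (2.80% of all genes) with 0 positive, and a median of -0.61, the 4 being 2 without KO agonist replicate 1 and 1 without KO vehicle replicate 1. Cyp7b1, which hydroxylates oxysterols, had 52.6 and 62.9 CPM in KO agonist livers and 592 and 185 CPM in KO vehicle livers. For Cyp7b1, WT agonist livers had 237 and 275 CPM and WT vehicle livers 488 and 358 CPM. KO agonist livers were the lowest, and Cyp7b1 fell in KO livers (log2 -2.75, SE 0.48, edgeR adjusted p = 0.0257). Periportal genes had a positive interaction in 5 of 18 and a median of -0.68.

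Interferon response genes were the list with the most members higher in KO than in WT livers under vehicle among the 16 described. Their median interaction was -0.11 over 36, with 0 at an unadjusted p under 0.05 in either direction, and 13 positive. Of the 36, 24 were higher in KO than in WT livers under the agonist (3.05% of all genes) and 12 under vehicle (0.286%). The 24 were 6 without KO agonist replicate 1, 13 without KO agonist replicate 2, 12 without WT agonist replicate 1 and 2 without WT agonist replicate 2, and the 12 were 3 without KO vehicle replicate 2, 4 without WT vehicle replicate 1 and 0 without WT vehicle replicate 2. Isg15, the ubiquitin-like protein of the interferon response, had 65.8 and 69.4 CPM in KO agonist livers, 81.8 and 83.8 CPM in KO vehicle livers, 13.0 and 11.4 CPM in WT agonist livers and 13.4 and 11.99 CPM in WT vehicle livers. KO livers stood above WT livers under both treatments, and among KO livers those given the agonist were the lower ones. Isg15 was higher in KO livers under the agonist (log2 2.48, SE 0.30, edgeR adjusted p = 0.00285) and under vehicle (log2 2.71, SE 0.30, edgeR adjusted p = 0.00543). Of 19 fetal and progenitor genes 17 were tested, 14 had a positive interaction, and the median was 0.82. At an unadjusted p under 0.05, 3 were positive and 2 negative (2.78% and 2.80% of all genes). With the replicate block Gpc3 and Igf2 had 2.51 and 4.40, and Meg3 and Rassf4 -6.19 and -1.42. Summed over the list, the level was 743 and 595 CPM in KO agonist livers and 930 and 645.5 CPM in KO vehicle livers. For the same sum, WT agonist livers had 196 and 219 CPM and WT vehicle livers 98.25 and 60.9 CPM. Under the agonist 5 were higher in KO than in WT livers (3.05% of all genes) and 3 under vehicle (0.286%), or 3 without WT agonist replicate 1, 2 without WT agonist replicate 2 and, under vehicle, 0 without WT vehicle replicate 2. Afp, alpha-fetoprotein, had 7.45 and 7.08 CPM in KO agonist livers and 2.03 and 6.03 CPM in KO vehicle livers. For Afp, WT agonist livers had 1.91 and 1.82 CPM and WT vehicle livers 2.18 and 1.08 CPM, with log2 0.57, SE 1.19, edgeR adjusted p = 1 for the interaction.

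**Figure D5:**
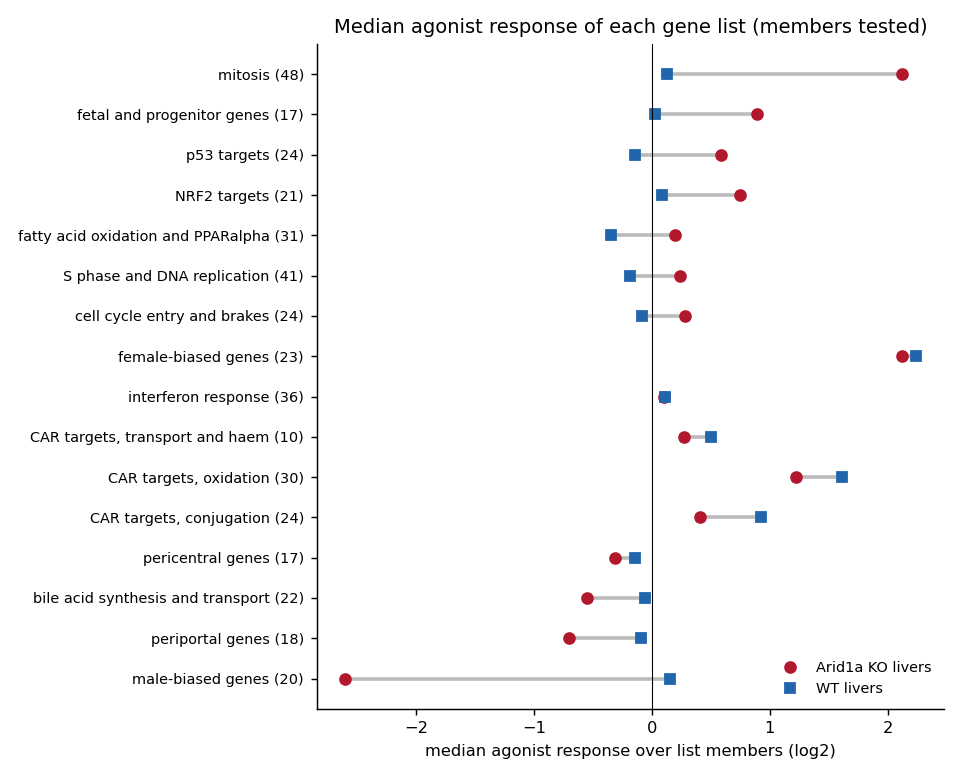
Median agonist response, on the log2 scale, of the 16 described gene lists in KO livers (red circles) and in WT livers (blue squares). The circle and square lie far apart for mitosis (2.12 and 0.12) and male-biased genes (-2.60 and 0.15), and close for female-biased genes.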

How the data were processed

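PolyA RNA of mouse liver was sequenced, and the authors deposited a table of raw read counts per gene for 16 samples, which are whole numbers, and a table of normalized signal, in which each deposited column equals the counts times 1 factor per library by a method that no label states. The submitters' processing notes name fastp, STAR 2.7.3, featureCounts and the GRCm38.p6 (mm10) build. No source used here gives the annotation release or the strand setting. Of 55291 gene symbols, 53292 (96.4%) matched GENCODE M21, the source of positions.

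Counts of the 14 liver libraries in 7 groups were fitted with edgeR 4.0.16 (R 4.3.3; filterByExpr, TMM, quasi-likelihood F test, 1 coefficient per group, Benjamini-Hochberg adjustment, called at adjusted p under 0.05), leaving 17831 genes, a biological coefficient of variation of 29.3% and 7 residual degrees of freedom. The tumours were left out of the fit. SE is the size of the log2 fold change over the root of F. List medians within replicates are differences of log2 CPM. Figures used matplotlib 3.10.9. Steps were tested on simulated data.

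Replicates are labelled biological, and nothing gives the animals behind them, so p-values measure the spread between these libraries. Samples of the 4 groups share replicate numbers. Same-numbered libraries deviated together from their group means (correlations of 0.170 to 0.366 in all 6 pairs of groups, over 17831 genes). The numbers were therefore taken to pair the samples in an alternative fit with the replicate block. The main p-values come from the fit without the block, which leaves this shared deviation in the spread. Other alternatives were RLE scaling, no filter, other sets of libraries, each library left out, replicate 2 as the only vehicle livers, 9-day WT vehicle livers, DESeq2 1.42.0, and limma-trend (limma 3.58.1) on the deposited normalized values as log2(value + 1). The block over the 8 libraries, and list counts under every alternative, were added after seeing the data.

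Genes named were, for the interaction, the called ones and the smallest p-values filling up to 10 in each direction (at least 2 CPM on average, no predicted genes), up to 6 called genes in each direction of each response, up to 4 members of each list by interaction p, a fixed set of markers, and the 5 genes most alike to Cyp2b10. Exceptions are said in place. The comparison, lists and tests were chosen with earlier results of these data known. Counting intervals are exact at 95% and, like the floor of 3 counts, cover counting error only. Promoter motifs were chosen after values were seen. The promoter count was planned for the list with the most interaction calls, the pericentral genes, and the mitosis genes were counted beside it. Of the 17 pericentral genes 10 had a match, with 12 windows between them. TTTGAA was in 2 of the 12 (16.7%, against 17.9% of all windows). AGGTCA was also in 2 (16.7%, against 16.3%), so both stood close to their shares of all windows. CCAAT was in 6 of the 12, against 37.4% of all windows, and GGCGGGAA was in 0, against 2.19%.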

Additional observations from a re-analysis of the deposited data

Results flagged for a closer look

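Slc1a2 was flagged because its agonist response differed between the genotypes by a test of the difference itself, edgeR's interaction term over 17831 genes. The difference was -5.45 on the log2 scale (edgeR adjusted p = 0.0129), with a response of -5.85 in KO livers and -0.40 in WT livers.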

How the results depend on the processing

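With all libraries 1, 155, 5, 883 and 92 genes were called for the interaction, the agonist response in KO livers, that in WT livers, KO against WT under the agonist and KO against WT under vehicle. With no low-count filter these were 493, 1353, 393, 2468 and 942, and with DESeq2 132, 671, 111, 1840 and 412. With the replicate block the interaction had 9 calls, and with the block over the 8 libraries it had 4, the WT response 17 and KO against WT under the agonist 1466. With only the 8 libraries fitted KO livers had 49 calls, KO against WT 417 under the agonist and 8 under vehicle. With all 16 libraries the WT response had 1 and KO against WT under vehicle 52. With replicate 2 as the only vehicle livers the interaction had 0, KO livers 16, WT livers 12 and KO against WT under vehicle 44. Against 9-day WT vehicle livers, which differ from the 30-day livers in time as well, the interaction had 166, WT livers 60 and KO against WT under vehicle 222, and limma-trend called 6 for the interaction and 32 in WT livers. Leaving out 1 library gave 0 to 23, 29 to 290, 0 to 18, 74 to 1112 and 1 to 177 in the same order. RLE scaling kept all 5 counts within 1.5 times. The replicate block also gave 207 calls in KO livers, 5 in WT livers, 1146 for KO against WT under the agonist and 93 under vehicle. Among the calls followed gene by gene it changed those given beside their results.

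Of 1870 pairs of a named gene's interaction and an alternative (104 genes, 18 alternatives), 1678 kept direction and side of the threshold, 138 passed it, 4 lost it and 50 changed sign, over 19 genes. The sign changes were with no low-count filter Arid1a 0.0242; with only the 8 libraries fitted Arid1a 0.0271; with the replicate block Arntl 0.15, Nr1i3 -0.014; with the replicate block over the 8 libraries Arid1a 0.0288, Arntl 0.45, Nr1i3 -0.20; with replicate 2 as the only vehicle livers Afp -0.50, Arid1a 0.0369, Arid1b 0.0728, Arntl 1.34, Cdkn1a -0.062, Glul 0.15, Ifit2 -0.10; against 9-day WT vehicle livers Alas1 0.27, Gbp7 0.18, Igtp 0.28, Isg15 0.14, Usp18 0.0812; by DESeq2 Arid1a 0.00162; by limma-trend Arntl 0.54, Nr1i3 -0.18. Over the libraries left out in turn, the values with a sign change ran Alas1 -1.60 to 0.0357, Arid1a -0.16 to 0.15, Arid1b -0.47 to 0.30, Arntl -2.98 to 4.19, Cyp2b10 -8.52 to 4.10, Cyp3a11 -0.53 to 0.18, Dbp -4.85 to 4.18, Fam171a1 -0.12 to 0.19, Gsta1 -4.31 to 1.14, Nr1i3 -1.32 to 0.92, Srebf1 -0.42 to 0.89. The cause of these differences was not tested. Groups of 2 livers and replicate 1 libraries of lower depth limit the precision: the median standard error of an interaction was 0.53 on the log2 scale, and counting error alone sets the floor of 3 counts.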

Other observations

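Genes of the extracellular matrix had a positive interaction in 21 of 23 and a median of 0.70, which was 1.79 within the replicate 1 livers and -0.12 within the replicate 2 livers. Col1a1, a chain of type I collagen, had 78.3 and 39.3 CPM in KO agonist livers, 11.4 and 43.7 CPM in KO vehicle livers, 7.77 and 4.82 CPM in WT agonist livers and 6.07 and 3.95 CPM in WT vehicle livers, so KO livers were above WT livers under both treatments. Spp1, the secreted matrix protein osteopontin, had 332 and 219 CPM in KO agonist livers, 84.6 and 261 CPM in KO vehicle livers, 42.7 and 33.7 CPM in WT agonist livers and 40.3 and 32.9 CPM in WT vehicle livers. Both genes were named after their values were seen. Genes of glucose production had a positive interaction in 2 of 15, with a median of -0.45, and 0 were called in KO livers. For the 20 circadian clock genes the median was -0.53, and 0 were called. Arntl, the clock activator BMAL1, had 29.3 and 2.52 CPM in KO agonist livers and 59.6 and 1.55 CPM in KO vehicle livers. For Arntl, WT agonist livers had 10.6 and 0.829 CPM and WT vehicle livers 18.8 and 1.30 CPM, high in replicate 1 of every group, the inverse of Dbp.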
